A study of Mus musculus with 72 samples.

Results

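The 9 genes Cd79a, Cd79b, Ms4a1, Cd22, Lyn, Blk, Syk, Btk and Blnk, which encode the signalling chains of the B cell receptor and proteins that act next to it, were followed in the ChIP-seq peak lists of mouse resting B cells. They were chosen by name, as 9 of 22350 protein-coding genes on chromosomes 1 to 19 and X in the GENCODE vM1 annotation of the mm9 genome, where Syk is listed under its older name Sykb. The cells were resting B cells from the spleens of C57BL/6 mice that were either Hmgn1+/+n2+/+ (WT) or Hmgn1-/-n2-/- (DKO), the latter lacking the nucleosome-binding proteins HMGN1 and HMGN2. Chromatin was immunoprecipitated with antibodies to the transcription factors IKAROS, ETS1, IRF8, PAX5 and OCT2, with 2 biological replicates per genotype and antibody, which gives 20 peak lists. A peak was assigned to a gene when it overlapped the gene body or the 20 kb on either side of it, so that a window can hold peaks of a neighbouring gene. The question was whether the factors occupy these genes to the same extent in WT and DKO cells.

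The B cell receptor is a membrane immunoglobulin bound to the CD79a and CD79b chains, whose cytoplasmic tails carry tyrosine motifs. When antigen binds, the Src family kinases LYN and BLK phosphorylate these tails, SYK docks on them, and SYK then phosphorylates the adaptor BLNK, on which BTK is brought to its substrates. CD20, the product of Ms4a1, and CD22 sit beside the receptor in the membrane, and CD22 dampens its signal by recruiting phosphatases. IKAROS, ETS1, IRF8, PAX5 and OCT2 are transcription factors of the B lineage. PAX5 is required for B cell identity, IRF8 binds DNA together with ETS family proteins at composite sites, and OCT2 binds the octamer.

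Of the 5 factors, IKAROS and ETS1 had peaks near all 9 genes in both WT libraries, where 26.5% and 31% of all genes had an IKAROS peak and 21% and 20.7% an ETS1 peak. IKAROS had 68 and 74 peaks near these genes in the WT libraries and 40 and 39 in the DKO libraries. ETS1 had 29 and 24 in WT and 13 and 9 in DKO. IRF8 peaks were found near 4 genes (Cd79b, Ms4a1, Syk and Lyn), against 4.14% and 4.05% of all genes in the WT libraries, with 6 and 5 peaks in WT and 4 and 5 in DKO. PAX5 had 2 and 3 peaks in WT and 2 and 1 in DKO, near Cd79a, Syk and Blnk, and OCT2 had 0 in each of its 4 libraries. In the WT libraries 1.17% and 1.49% of all genes had a PAX5 peak, and 0.398% and 0.38% an OCT2 peak. The whole lists were shorter in DKO cells for every factor. They fell from 9102 and 10969 peaks to 5032 and 4838 for IKAROS, from 4524 and 4561 to 1220 and 1098 for ETS1, from 886 and 868 to 370 and 284 for IRF8, from 231 and 280 to 28 and 34 for PAX5, and from 72 and 65 to 10 and 18 for OCT2. The files hold no read counts, so the depth of each library is not known. The number of stacked reads at the summits could be solved as whole numbers in 10 of 10 WT lists but in 3 of 10 DKO lists. This difference moved with genotype, and its part in the results was not tested. The series holds a single resting B cell input per genotype. The input thus also moved with genotype, and its part was not tested either.

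Peaks of the 5 factors near the 9 genes merged into 79 regions. IKAROS alone had peaks in 50 of them and ETS1 alone in 6, while 15 held IKAROS and ETS1, 3 held ETS1 and IRF8, 2 held IKAROS, ETS1 and IRF8, and 2 held IKAROS, ETS1 and PAX5. A single region, 10.5 kb upstream of Syk, held peaks of IKAROS, ETS1, IRF8 and PAX5. All 6 IRF8 sites and all 3 PAX5 sites near these genes lay in regions with an ETS1 peak, which at Cd79b was called in DKO alone. The same share over all IRF8 and PAX5 sites is not given here, so this is not a trait particular to these genes. Sequences of 9 places, chosen as the strongest IRF8 and PAX5 sites, which lie in regions shared with ETS1, and as single IKAROS and ETS1 sites called in all libraries or lost in DKO cells, are shown with the letters of 6 searched motifs in capitals: GGAAG (ETS core), TGGGAA (IKAROS core), GGAA and GAAA with any 2 bases between them (ETS-IRF composite), GAAA repeated after any 2 bases (interferon response type), ATGCAAAT (octamer) and GCGTGAC (PAX5 core). Matches on either strand count, and matches can overlap. Each sequence is the forward strand of mm9, taken 100 bases to each side of the summit and shortened where annotated exons begin. The first 4 are the strongest IRF8 sites of the 4 genes that had any, an intron of Lyn (chr4:3651935-3652135), the intergenic sequence downstream of Ms4a1 (chr19:11318776-11318976), the intergenic sequence upstream of Syk (chr13:52667958-52668158) and the intergenic sequence downstream of Cd79b (chr11:106167226-106167426).
Lyn, IRF8 and ETS1: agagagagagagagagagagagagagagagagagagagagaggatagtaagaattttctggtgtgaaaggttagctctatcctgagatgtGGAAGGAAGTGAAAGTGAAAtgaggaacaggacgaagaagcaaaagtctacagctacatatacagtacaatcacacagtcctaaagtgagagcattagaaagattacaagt
Ms4a1, IRF8 and ETS1: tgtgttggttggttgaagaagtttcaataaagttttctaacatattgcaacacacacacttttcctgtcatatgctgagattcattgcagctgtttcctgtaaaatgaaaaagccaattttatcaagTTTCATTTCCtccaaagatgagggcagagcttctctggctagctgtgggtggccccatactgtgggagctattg
Syk, IRF8, ETS1, PAX5 and IKAROS: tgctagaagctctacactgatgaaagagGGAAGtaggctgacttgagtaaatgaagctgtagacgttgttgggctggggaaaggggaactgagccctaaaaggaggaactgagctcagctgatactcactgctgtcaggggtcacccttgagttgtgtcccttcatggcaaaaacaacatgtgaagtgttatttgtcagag
Cd79b, IRF8, ETS1 and IKAROS: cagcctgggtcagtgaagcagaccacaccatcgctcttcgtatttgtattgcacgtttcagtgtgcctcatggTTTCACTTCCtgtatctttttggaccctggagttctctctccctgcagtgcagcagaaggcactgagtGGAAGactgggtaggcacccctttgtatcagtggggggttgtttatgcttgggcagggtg

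The ETS-IRF composite was matched at 4 of the 6 IRF8 sites near these genes, those in the Lyn intron, downstream of Lyn, downstream of Ms4a1 and downstream of Cd79b. It was matched at 44.1% of the 1088 IRF8 sites on chromosomes 1 to 19 and X and at 2.48% of windows of the same 201 bases placed 5000 bp away from them. At the Lyn intron site the composite is joined by an interferon response type match that shares its last bases, so that the capitals run without a break. ETS1 sites matched the same composite at 4 of 32 places near the 9 genes, against 9.18% of all ETS1 sites, and these 4 were the ETS1 sites at the positions of the IRF8 sites named. The Syk site held an ETS core but neither of the IRF type motifs. In the Lyn window, 54.5% of the 24-base words occur once in the genome and the most repeated occurs 1159956 times. Every word of the Ms4a1, Syk and Cd79b windows occurs once.

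The other sequences are the PAX5, ETS1 and IKAROS region in an intron of Blnk (chr19:41037595-41037795), the strongest IKAROS site near any of the genes, upstream of Syk (chr13:52668355-52668555), the strongest IKAROS site called in both WT and no DKO library, downstream of Cd79b (chr11:106169358-106169558), the strongest such ETS1 site, in an intron of Cd22 (chr7:31664048-31664213), and the bases just before the transcription start of Cd79a (chr7:25682306-25682399), where ETS1 was called in all 4 libraries.
Blnk, PAX5, ETS1 and IKAROS: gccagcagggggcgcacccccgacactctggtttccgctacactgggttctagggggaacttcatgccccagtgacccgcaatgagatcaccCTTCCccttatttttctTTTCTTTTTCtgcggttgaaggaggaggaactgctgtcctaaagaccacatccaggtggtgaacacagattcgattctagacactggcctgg
Syk, IKAROS: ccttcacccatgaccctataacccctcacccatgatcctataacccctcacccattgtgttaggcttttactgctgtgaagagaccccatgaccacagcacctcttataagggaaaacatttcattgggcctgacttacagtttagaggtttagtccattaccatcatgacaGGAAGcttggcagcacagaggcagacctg
Cd79b, IKAROS lost in DKO: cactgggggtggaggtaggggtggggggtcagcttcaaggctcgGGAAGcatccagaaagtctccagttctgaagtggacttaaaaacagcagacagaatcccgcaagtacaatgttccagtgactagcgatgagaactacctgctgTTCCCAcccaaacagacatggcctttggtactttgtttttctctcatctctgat
Cd22, ETS1 lost in DKO: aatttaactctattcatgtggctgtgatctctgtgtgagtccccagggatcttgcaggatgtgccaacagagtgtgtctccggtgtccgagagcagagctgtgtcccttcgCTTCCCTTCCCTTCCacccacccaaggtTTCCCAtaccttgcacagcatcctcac
Cd79a, ETS1 at the start: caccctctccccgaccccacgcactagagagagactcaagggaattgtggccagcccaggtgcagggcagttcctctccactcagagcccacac

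The Cd22 intron window holds 3 ETS cores in tandem and an IKAROS core. The Cd79b window holds 1 ETS core and 1 IKAROS core, and the strongest IKAROS window, near Syk, holds an ETS core and no IKAROS core. In that Syk window 74.2% of the 24-base words occur once in the genome and the most repeated occurs 36 times. The Blnk window holds an ETS core and an interferon response type match and no PAX5 core, and the Cd79a stretch, which ends before the summit, matched none of the 6 motifs, while the whole window of 201 bases around that summit holds 1 ETS core. Over all sites near the genes, the IKAROS core was matched at 20 of 76 IKAROS sites (26.3%), compared with 18.2% of all IKAROS sites and 17.7% of windows 5000 bp away. The ETS core was matched at 25 of 32 ETS1 sites (78.1%), compared with 84.6% of all ETS1 sites and 47.7% of windows 5000 bp away. A match describes the letters and does not show that a factor was bound there.

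The summed IKAROS fold enrichment was lower in DKO cells at 8 of the 9 genes. For each gene the authors' fold enrichment over input was summed over its peaks, a library without a peak counting as 0, and log2 of the sum plus 1 was compared between genotypes with limma over all genes that had a peak, with Benjamini-Hochberg adjusted p values at a threshold of 0.05. The 8 genes stand against a background of 53.3% of 7116 genes called lower and 0.112% called higher in DKO. The median log2 change of the 9 genes was -1.54 and that of all 7116 genes was -1.42. The genes thus sat close to the change of the IKAROS list as a whole.

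A sum over peaks called separately in each library moves with the number of peaks as well as with their height. Peak length does not enter the sum and is given beside it. The length covered by IKAROS peaks in DKO ranged from 10.1% of that in WT at Cd22 to 79.5% at Blk. At Cd22 it was 2750 and 4056 bp in WT and 373 and 314 bp in DKO, and the mean fold enrichment per peak was 7.77 and 6.29 in WT and 3.21 and 3.62 in DKO. Cd79a had 4402 and 5183 bp in WT and 1705 and 1799 bp in DKO, with a mean per peak of 10.2 and 9.05 in WT and 7.32 and 6.35 in DKO. With the highest fold enrichment of each window in place of the sum, log2 changes were smaller at most of the genes, at -0.92 for Cd79a, -1.03 for Cd79b, -1.33 for Ms4a1, -1.50 for Cd22, -0.92 for Syk, -0.86 for Btk and -1.14 for Blnk, but -1.38 for Lyn. The log2 changes of the sums that follow are therefore not changes in height alone.

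Among the receptor chains, Cd79a (chr7:25682400-25687216) had a summed IKAROS fold enrichment of 82.0 and 99.6 in the WT libraries and 29.3 and 31.8 in the DKO libraries. The log2 change was -1.54 ± 0.17 (SE, n = 2 per genotype, limma adjusted p = 0.0106). Much of the DKO sum in the Cd79a window came from sites by the starts of Rps19 and Arhgef1. The site 0.2 kb inside Cd79a had 15.6 and 12.3 in WT and 5.86 and 4.90 in DKO. At Cd79b (chr11:106172655-106176076), which had the highest sum of the 9 genes in WT, the values were 136.8 and 131.0 in WT and 44.8 and 44.6 in DKO, a log2 change of -1.56 ± 0.13 (limma adjusted p = 0.00589). Both DKO values lay below both WT values at each chain. IKAROS peaks at Cd79b numbered 14 in both WT libraries and 8 in both DKO libraries. Its window also covers Gh, and part of Scn4a, and IKAROS sites from 6.6 kb downstream of its start onwards lie closer to the start of Gh than to its own.

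Of the membrane proteins beside the receptor, Cd22 (chr7:31650421-31665361) had the largest IKAROS change of the 9 genes. Its summed fold enrichment was 54.4 and 62.9 in WT and 6.42 and 7.25 in DKO, a log2 change of -2.93 ± 0.16 (limma adjusted p = 0.0029). It had 7 and 10 IKAROS peaks in WT and 2 in both DKO libraries, at sites 7.2 and 10.3 kb upstream, while the 4 sites within 1000 bp of a Cd22 transcription start were called in no DKO library. Ms4a1 (chr19:11324654-11340669) had 40.2 and 50.2 in WT and 12.8 and 13.5 in DKO, a log2 change of -1.70 ± 0.18 (limma adjusted p = 0.00938). Of the 4 IKAROS sites within 1000 bp of an Ms4a1 start, 2 were called in all 4 libraries, 1 in all but DKO replicate 1 and 1 in both WT libraries alone. The site 0.3 kb upstream of its start had fold enrichments of 14.3 and 14.3 in WT and 4.35 and 5.02 in DKO.

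For the kinases, the summed IKAROS fold enrichment at Syk (chr13:52678542-52744161) was 107.2 and 106.8 in WT and 53.4 and 48.4 in DKO, a log2 change of -1.06 ± 0.14 (limma adjusted p = 0.0134). Btk (chrX:131076875-131118109), the kinase that activates phospholipase C, had 105.9 and 102.7 in WT and 36.6 and 26.9 in DKO (log2 change -1.70 ± 0.22, limma adjusted p = 0.0128). Much of the DKO sum in the Btk window came from sites by the starts of Timm8a1 (12.8 and 8.28) and Hnrnph2 (9.11 and 9.64). Lyn (chr4:3605262-3740269) had 62.2 and 54.1 in WT and 22.8 and 26.8 in DKO (log2 change -1.20 ± 0.17, limma adjusted p = 0.0168). In all 3 genes the groups did not overlap. The adaptor gene Blnk (chr19:41003417-41069025) gave 70.6 and 60.2 in WT and 18.9 and 25.9 in DKO, a log2 change of -1.52 ± 0.23 (limma adjusted p = 0.0187).

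Blk (chr14:63991674-64036024), which encodes a B lineage kinase of the Src family, was the exception. Its summed fold enrichment was 31.1 and 25.4 in WT and 30.3 and 26.7 in DKO, so the groups overlapped, and the log2 change was 0.02 ± 0.18 (limma adjusted p = 0.935). The sum hides a change in how the peaks were called. The lists hold no read signal, so a change in its shape was not tested. A domain of 3315 bp over the Blk promoter was called as 2 peaks and 1 peak in the WT libraries and as 5 and 4 narrower peaks in the DKO libraries. Its highest fold enrichment was 18.6 and 20.03 in WT and 7.67 and 10.4 in DKO. With the highest fold enrichment of each window in place of the sum, the log2 change at Blk was -1.03 (limma adjusted p = 0.0285) and all 9 genes were called lower, against a share of 52.7% of all genes.

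**Figure D1:**
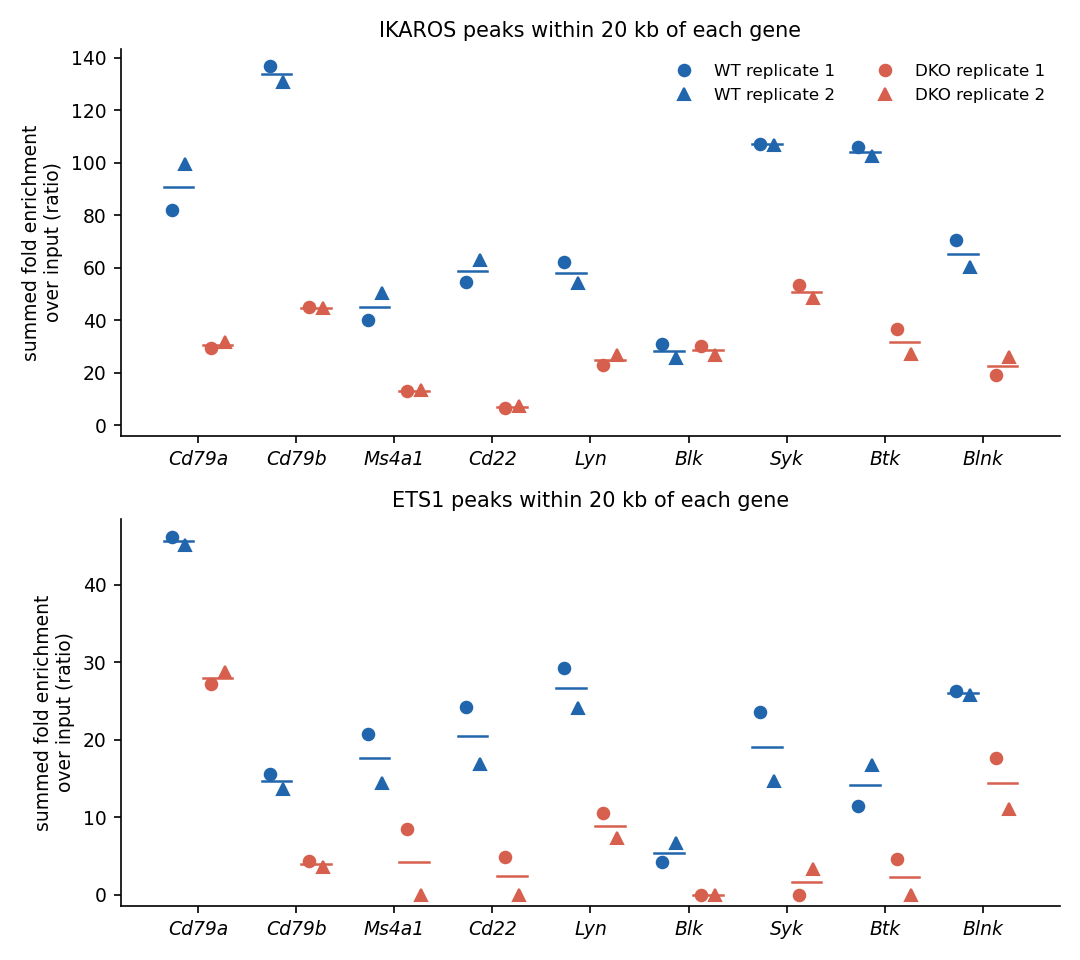
Summed fold enrichment over input (a ratio, linear axis) of the IKAROS peaks (top) and ETS1 peaks (bottom) within 20 kb of each of the 9 genes, with 1 point per library (circle, replicate 1, triangle, replicate 2) and a line at the mean of each genotype. For IKAROS both DKO points lie below both WT points at 8 genes and overlap them at Blk, and for ETS1 both DKO points lie below both WT points at all 9, with points at 0 where no peak was called.

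Both DKO values fell below both WT values at 8 of 9 genes for IKAROS, where 76.3% of all tested genes showed that order. The count of 8 genes depended on the spread between few libraries and on the scale. With a replicate block it was 2 (against 26.2% of all genes), by number of peaks 4 (27.5%) and with lists of equal length 5 (31.9%). It was 4 without WT replicate 1, 4 without WT replicate 2 and 1 without DKO replicate 1, where 55.5%, 45.7% and 20.9% of all genes were called lower, and 0 without DKO replicate 2, where limma called 0 of 7114 genes. After quantile normalization, which takes out the change that all genes share, limma called only Cd22 lower (log2 change -1.71, adjusted p = 0.0218), against 5.23% of all genes, and none of the 9 higher, and over all genes it called 372 lower and 936 higher in place of 3790 and 8.

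IKAROS peaks of the 4 libraries merged into 76 sites near the 9 genes. Of these, 29 were called in all 4 libraries (against 31% of all IKAROS sites), 19 in both WT libraries and no DKO library (25%, against 28.2% of all IKAROS sites), and 0 in both DKO libraries and no WT library, against 0.14% of all IKAROS sites. The count of 19 was 3 with lists cut to equal length, 6 with peaks merged within 500 bp, 40 where 1 library sufficed and 38 without WT replicate 1. Merging joins a site to called peaks nearby. Shares over all IKAROS sites at these settings are not given, so these counts have no background. At 25 of the 29 sites called in all 4 libraries fold enrichment was lower in DKO (limma on log2 fold enrichment, adjusted over 3543 sites), against 79.9% of all such sites, and at 0 it was higher, against 0.31%. The median log2 change was -0.99 near the genes and -0.91 over all such sites. With any 1 library left out, between 24 and 26 of the 29 sites were called lower. After median centring over sites 3 of the 29 were called lower and 1 higher, with 221 sites lower (6.24%) and 262 higher over the whole list of 3543.

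**Figure D2:**
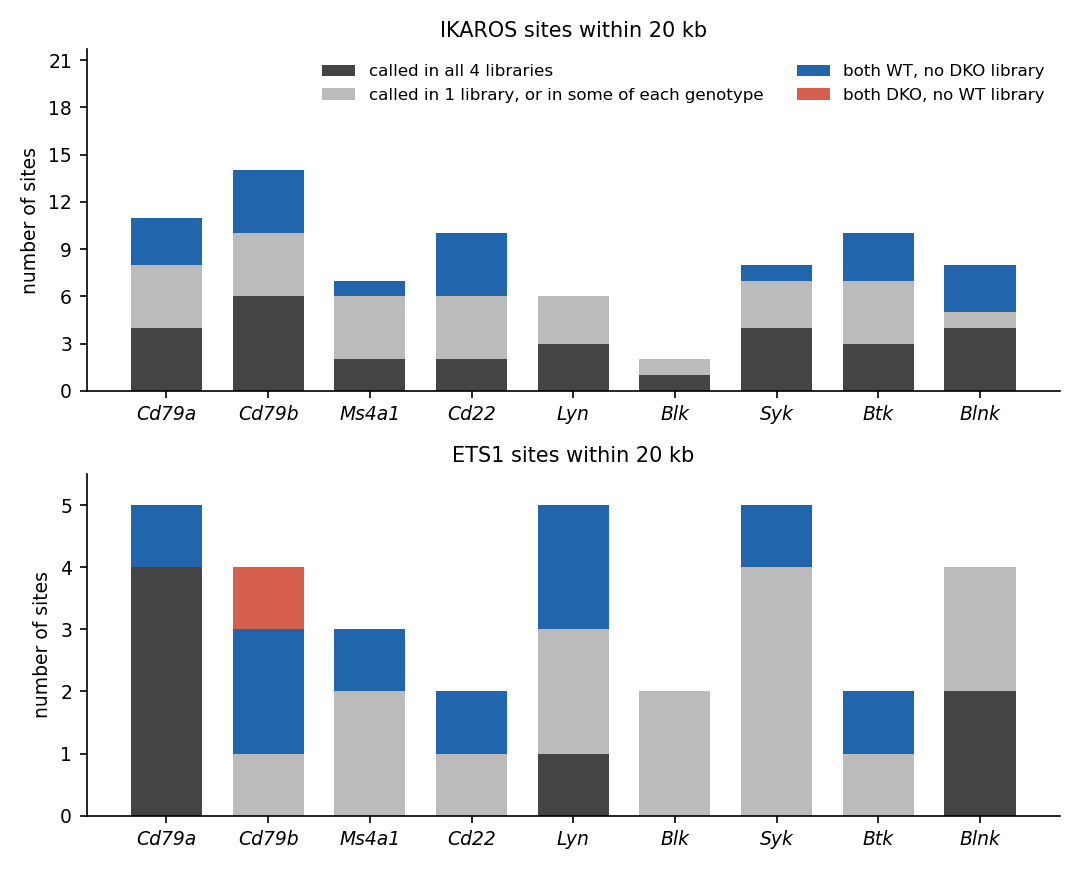
Number of IKAROS sites (top) and ETS1 sites (bottom) within 20 kb of each gene, stacked by the libraries that called them. Sites in both WT libraries and no DKO library (blue) number 19 for IKAROS and 9 for ETS1 (3 and 1 with lists cut to equal length), and the single site in both DKO libraries and no WT library (red) is an ETS1 site near Cd79b.

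The strongest IKAROS sites near the genes were upstream of Syk. A site 10.1 kb upstream had fold enrichments of 45.8 and 39.7 in WT and 22.6 and 21.7 in DKO, and one 10.8 kb upstream had 28.1 and 27.4 in WT and 14.5 and 11.0 in DKO. Log2 changes were -0.95 (limma adjusted p = 0.00159) and -1.13 (adjusted p = 0.00097). In an intron of Lyn, 0.7 kb from the start, values were 23.2 and 22.4 in WT and 7.06 and 9.22 in DKO. A site in a Btk intron, 16.6 kb from the start, had 20.3 and 21.6 in WT and 5.83 and 9.01 in DKO. At each of these sites both DKO values were below both WT values, an order seen at 27 of the 29 sites and at 89.4% of the 3543 IKAROS sites tested over the genome.

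The 3 sites called lower after centring lay 6.1 kb downstream of the start of Cd79b (19.8 and 15.97 in WT, 5.59 and 5.71 in DKO, adjusted p = 0.0412 after centring), at the Ms4a1 promoter (adjusted p = 0.0402) and 7.2 kb upstream of Cd22 (13.9 and 11.5 in WT, 3.47 and 4.20 in DKO, adjusted p = 0.0356). Their log2 changes before centring were -1.65, -1.61 and -1.73. The site called higher after centring lay within the Btk window but in the untranslated region of Timm8a1, whose product acts in mitochondrial import. It had 8.40 and 11.7 in WT and 12.8 and 8.28 in DKO, a log2 change of 0.05 (adjusted p = 0.846, and 0.0289 after centring). Among the 29 sites it was the single one whose log2 change was above 0.

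**Figure D3:**
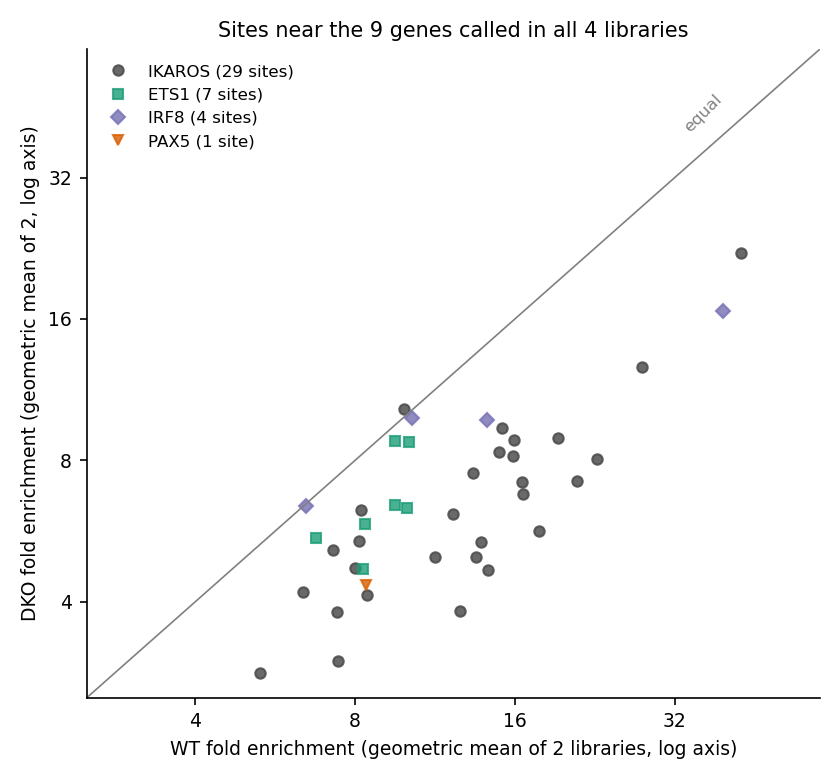
Fold enrichment over input in WT (x axis) and DKO (y axis), each the geometric mean of 2 libraries on log axes, at the sites near the 9 genes called in all 4 libraries, with 29 IKAROS, 7 ETS1, 4 IRF8 and 1 PAX5 site. The grey line marks equal values, and all but the Timm8a1 site of IKAROS lie on it or below it.

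IKAROS sites called in both WT libraries and no DKO library numbered 4 of 14 at Cd79b, 4 of 10 at Cd22, 3 of 11 at Cd79a, 3 of 10 at Btk, 3 of 8 at Blnk, 1 of 7 at Ms4a1, 1 of 8 at Syk, 0 of 6 at Lyn and 0 of 2 at Blk. The differences between genes were not tested. The strongest of them lay 6.6 kb downstream of the Cd79b start, with fold enrichments of 14.1 and 12.3 in WT and no peak in DKO. It adjoins the site 6.1 kb from the start that stayed called in DKO.

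The summed ETS1 fold enrichment was lower in DKO at 3 of the 9 genes, Cd79b, Blk and Lyn, against 39.2% of 5732 genes called lower and 0.0872% called higher. Cd79b had a summed ETS1 fold enrichment of 15.6 and 13.7 in WT and 4.31 and 3.61 in DKO (log2 change -1.66 ± 0.19, limma adjusted p = 0.0112). No ETS1 site at Cd79b was called in both genotypes. Its DKO values are those of a site 8.9 kb downstream of the start, called in DKO alone, so the sums compare different places. At Lyn the values were 29.3 and 24.2 in WT and 10.5 and 7.34 in DKO (log2 change -1.49 ± 0.27, limma adjusted p = 0.0335). Blk had 4.19 and 6.72 in WT, from peaks at different places in the WT libraries, and no ETS1 peak in either DKO library (limma adjusted p = 0.00959). The calls at Cd79b and Lyn were lost with the highest fold enrichment in place of the sum, where the log2 change was -0.79 at Cd79b (adjusted p = 0.11) and -0.16 at Lyn (adjusted p = 0.628), and with lists of equal length, where it was 0.65 at Cd79b and -0.10 at Lyn. At Lyn the mean fold enrichment per ETS1 peak was 7.32 and 6.04 in WT and 10.5 and 7.34 in DKO, over 766 and 832 bp of peaks in WT and 247 and 188 bp in DKO. Cd79b had a mean per peak of 5.19 and 6.83 in WT and 4.31 and 3.61 in DKO, over 587 and 405 bp in WT and 186 and 228 bp in DKO. The call at Blk was lost in windows of 5 kb (log2 change -1.19, adjusted p = 0.348).

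At the other 6 genes the ETS1 comparison did not pass the threshold, although both DKO values lay below both WT values at all 9 genes, an order seen in 57.5% of all genes with ETS1 peaks. Cd22 had 24.3 and 16.8 in WT and 4.91 and 0 in DKO (limma adjusted p = 0.147), and Syk had 23.5 and 14.7 in WT and 0 and 3.35 in DKO (adjusted p = 0.099). Ms4a1 had 20.7 and 14.5 in WT and 8.45 and 0 in DKO (adjusted p = 0.303), and Btk had 11.5 and 16.8 in WT and 4.69 and 0 in DKO (adjusted p = 0.196). In each of these 4 genes 1 DKO library held a peak and the other none, which widened the spread. The count of 3 genes was 1 without either WT replicate, where 63.8% and 64.4% of all genes were called lower, and 0 without either DKO replicate, where limma called 0 of 5717 and 0 of 5709 genes. Without a WT replicate most genes had identical values in the DKO libraries, so that those fits had no spread for most genes and are unreliable. After quantile normalization it was 0, against 2.93% of all genes, with 168 genes lower and 136 higher over the whole list in place of 2248 and 5.

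ETS1 had 6 and 5 peaks in the Cd79a window in WT and 5 and 4 in DKO. In the Blnk window it had 4 and 3 in WT and 3 and 2 in DKO. The Cd79a window also holds ETS1 sites by the starts of Rps19 and Arhgef1. Cd79a had a summed ETS1 fold enrichment of 46.1 and 45.1 in WT and 27.2 and 28.7 in DKO, a log2 change of -0.69 ± 0.15 (limma adjusted p = 0.055). The site at its transcription start had 10.8 and 9.42 in WT and 7.70 and 9.95 in DKO, so that the groups overlapped (log2 change -0.21, adjusted p = 0.472). Blnk had sums of 26.3 and 25.8 in WT and 17.7 and 11.1 in DKO (log2 change -0.85 ± 0.30, adjusted p = 0.151). In Lyn a site 4.9 kb inside the gene had 11.5 and 7.87 in WT and 10.5 and 7.34 in DKO, while the ETS1 site at 46.8 kb was called in both WT libraries, at 8.63 and 8.62, and in neither DKO library.

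Among 32 ETS1 sites near the genes 7 were called in all 4 libraries (against 12.7% of all ETS1 sites). Of these, 4 were in the Cd79a window, 2 at Blnk and 1 at Lyn. Only the site at the Cd79a start lay at Cd79a itself, and the others in its window lay by the starts of Rps19 and Arhgef1. Another 9 were called in both WT libraries and no DKO library (28.1%, against 33.9% of all ETS1 sites). That count was 1 with lists cut to equal length, 19 where 1 library sufficed and 16 without WT replicate 2. Shares over all ETS1 sites at these settings are not given. The strongest of the 9 was in an intron of Cd22, 1.2 kb from the gene's outermost start, at 10.7 and 10.4 in WT. Of the 7 sites called in all 4 libraries, 0 were higher in DKO, against 1.76% of all such sites, and 2 were lower, against 49.7%, both inside Arhgef1, the gene next to Cd79a (8.86 and 7.73 in WT, 4.04 and 5.48 in DKO, adjusted p = 0.00977, and 7.84 and 12.8 in WT, 5.47 and 7.32 in DKO, adjusted p = 0.0458). After median centring 0 of the 7 were called in either direction, with 69 sites lower and 70 higher over the whole list in place of 368 and 13.

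A single ETS1 site was called in both DKO libraries and no WT library, against 0.103% of all ETS1 sites, which is 6 of 5840. It lay 8.9 kb downstream of the start of Cd79b, with fold enrichments of 4.31 and 3.61 in DKO. An IRF8 peak lay at the same place, with fold enrichments of 7.07 and 5.93 in WT and 6.54 and 6.28 in DKO, and the sequence there holds the ETS-IRF composite shown for Cd79b. A broad IKAROS site at this place had 8.86 and 9.15 in WT and no peak in DKO. Thus at this position IKAROS was called in WT alone, ETS1 in DKO alone and IRF8 in all 4 libraries. The DKO values of ETS1 were below the medians of their lists, 5.33 and 5.51, and the site is absent from windows of 5 kb.

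Of the 6 IRF8 sites near the genes, 4 were called in both DKO libraries. Both WT libraries called 5 of the 6 IRF8 sites, and 0 of these 5 were without a peak in both DKO libraries, against 48.6% of all IRF8 sites called in both WT libraries. By summed fold enrichment limma called 0 of the 4 genes lower, against 31.9% of 1165 genes lower and 0.858% higher, and 1 gene, Lyn, had an unadjusted p below the threshold. After quantile normalization 0 were lower, against 2.75% of all genes, and 1, Cd79b, was higher (log2 change 1.81, adjusted p = 0.0374), as were 31 of all 1165 genes. At Cd79b the values were those of its single site. The Syk site, 10.5 kb upstream, had 10.6 and 9.85 in WT and 10.4 and 9.35 in DKO, a log2 change of -0.05 (adjusted p = 0.847). At both genes the genotypes overlapped.

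The Lyn intron held the strongest IRF8 site. Its fold enrichment was 43.99 and 35.3 in WT and 17.8 and 15.6 in DKO, a log2 change of -1.24 (limma adjusted p = 0.00279, and 0.0381 after median centring). Of the 4 IRF8 sites called in all libraries (against 19.4% of all IRF8 sites) it was the 1 called lower, against 37.8% of all such sites, and 0 were higher, against 1.91%. The call was lost without DKO replicate 2, where the count was 0. The ETS1 peak at the same composite was called in WT alone. The site downstream of Ms4a1 had 14.8 and 13.5 in WT and 9.55 and 9.91 in DKO (log2 change -0.54, adjusted p = 0.0639), and its ETS1 peak was at 11.6 and 10.8 in WT and at 8.45 in DKO replicate 1 alone. With 4 such sites these values describe the places and do not set them apart from other IRF8 sites.

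**Figure D4:**
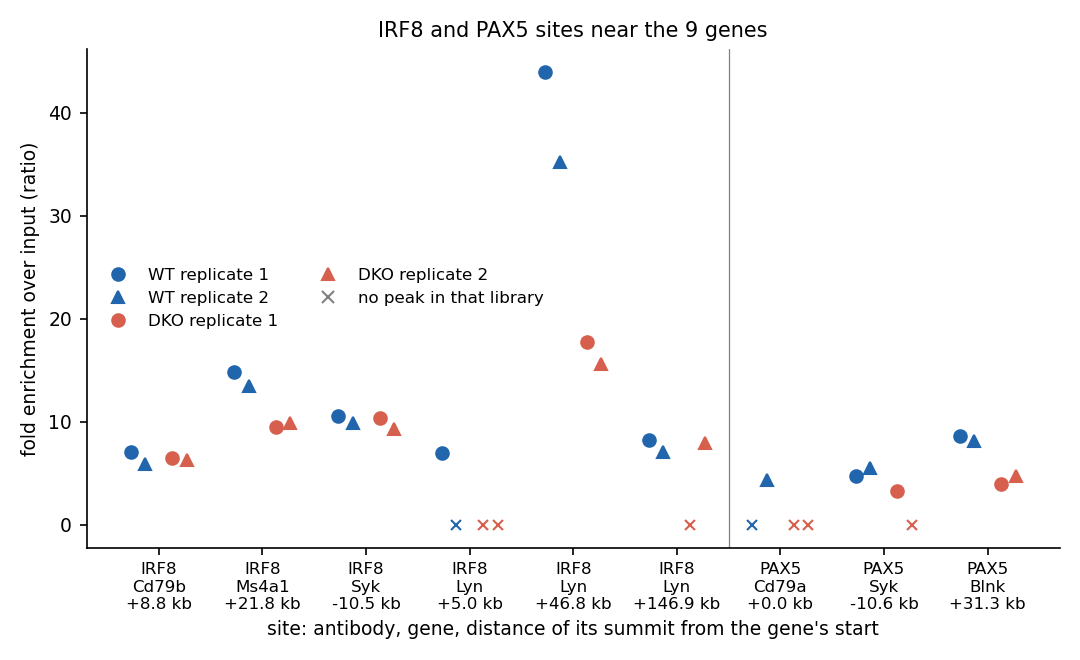
Fold enrichment over input (ratio, linear axis) at the 6 IRF8 sites and 3 PAX5 sites near the 9 genes, with 1 point per library and a cross at 0 where that library had no peak. The Lyn intron site stands highest in every library, and the WT and DKO points overlap at the Cd79b and Syk sites of IRF8.

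PAX5 and OCT2 lists were too short for a test across genes. The PAX5 site in the Blnk intron, 31.3 kb from the start, was called in all 4 libraries, with fold enrichments of 8.67 and 8.11 in WT and 4.0 and 4.73 in DKO. Sites called in all 4 libraries were 4.42% of all PAX5 sites. ETS1 at this place had 6.94 and 10.1 in WT and 5.94 and 5.76 in DKO, and IKAROS had 7.14 and 6.01 in WT and no peak in DKO. The PAX5 site upstream of Syk had 4.75 and 5.52 in WT, 3.34 in DKO replicate 1 and no peak in DKO replicate 2. At Cd79a, long studied as a PAX5 target, a PAX5 peak at the start was called in WT replicate 2 alone, at 4.34. Both of the PAX5 sites found in WT replicates 1 and 2 had a peak in at least 1 DKO library, whereas 77.5% of such sites in the whole list had none. Near the 9 genes OCT2 had no site, out of 89 in its lists, so these data hold no OCT2 value for them.

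Further genes of the pathway were counted in the same way. Of 40 genes listed, with co-receptors, adaptors, lipid and calcium signalling, NF-kB and NFAT genes and inhibitors, 38 had an IKAROS peak and 32 were called lower (84.2%, against 53.3% of all genes), 35 had an ETS1 peak and 12 were called lower (34.3%, against 39.2%), and 17 had an IRF8 peak and 6 were called lower (35.3%, against 31.9%), with 0 higher for any factor. After quantile normalization 1, 1 and 0 of these pathway genes were called lower, against 5.23%, 2.93% and 2.75% of all genes. Median log2 changes were -1.34 for IKAROS, -1.66 for ETS1 and -1.65 for IRF8, beside -1.42, -1.50 and -1.49 over all tested genes. The calls with the smallest adjusted p were all genes without a peak in DKO. For IKAROS they included Cbl, a ubiquitin ligase (4.66 and 4.30 in WT), and Cd81, a tetraspanin (5.53 and 7.58). For ETS1 they were Cd38, a surface enzyme (17.3 and 21.2), the ubiquitin ligase gene Cblb (9.61 and 10.3) and Cd81 (8.29 and 7.63). For IRF8 they were the adaptor genes Sh3bp2 (9.04 and 8.60) and Bank1 (8.43 and 9.26) and the exchange factor gene Vav1 (4.90 and 5.38).

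Beside these, 12 of 16 B cell transcription factor genes with IKAROS peaks, 8 of 13 with ETS1 peaks and 2 of 6 with IRF8 peaks were called lower, and 7 of 10, 3 of 9 and 0 of 4 MHC class II genes, beside the same 53.3%, 39.2% and 31.9% of all genes. After quantile normalization 2, 1 and 0 of the transcription factor genes and 0, 0 and 0 of the MHC class II genes were called lower. Genes whose summed fold enrichment over the 20 libraries was most like the mean of the 9 were Bach2, Inpp5d, Ubac2, Scn4a and Gh, with Pearson's r from 0.963 to 0.967 across libraries. These libraries differ in factor and list length, which all genes share, and Scn4a and Gh share peaks with Cd79b. All 10 B cell marker genes in the annotation, 5 of them among the 9 genes, had IKAROS peaks in all 4 libraries, and 0 of 7 NK cell markers had any, beside 26.5% and 31% of all genes in the WT libraries. Of 12 T cell markers 5 or 6 had an IKAROS peak, as did 1 or 2 of 12 myeloid markers and 1 or 2 of 6 plasma cell markers. Peaks do not measure expression, so the purity of the cells was not tested. In mouse embryonic fibroblasts of the same series, with 2 WT and 2 DKO libraries, H3K27ac, a mark of active promoters, was called at the promoter of Lyn in 4 of 4 libraries and of Syk in all but DKO replicate 2, and at the promoters of the other 7 genes in 0 of 4. The share over all gene promoters is not given here, so these calls do not set the genes apart.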

How the data were processed

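The authors trimmed the reads with cutadapt 1.16, aligned them to mm9 with BWA, took out reads in blacklisted regions and ran MACS2 2.1.1.20160309 for narrow peaks, per library against input (versions as in the submitters' processing notes). The deposited lists give the authors' fold enrichment, a ratio of summit pileup to local background, and −log10 p and −log10 q from their test. Every listed peak had a q of at most 0.01, and read counts were not used here, so list length depends on depth. The read-level test of the study could not be run on peak lists. Overlapping peaks (by at least 1 bp) of the 4 lists per antibody were joined into sites. limma 3.58.1 in R 4.3.3 was fitted per antibody, without a block, over genes with a peak (antibodies with at least 500 such genes) or sites called in all 4 libraries (at least 100), with a pseudocount of 1 for genes. Exact permutation of 2 against 2 libraries cannot give a p below 0.333, so p values rest on a spread shared across features. The labels call the replicates biological and tie none to an animal. The steps were tested on simulated data. Sequences were read from mm9 with pysam 0.24.0, and promoters were positions within 1000 bp of a transcription start. Named sites were, per gene and antibody, those with the highest mean −log10 q, promoter sites, and the strongest site called in 1 genotype alone. Pathway genes were the 3 with the smallest adjusted p per direction, of which 1 is not reported here, and like genes the 5 with the highest correlation. Members, lists and rules were chosen with earlier results of these data known. Alternatives covered stricter q, equal list lengths, other summaries, windows, pseudocounts, merging, normalization, a replicate block and left-out replicates. Syk was found through RefSeq synonyms.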

Additional observations from a re-analysis of the deposited data

How the results depend on the processing

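Of the 29 IKAROS sites called in all libraries, 25 were called lower in fold enrichment, and 3 lower and 1 higher after median centring. Of the ETS1 sites 2 were called lower, 1 to 3 with a library left out and 0 after centring, and of the IRF8 sites 1, and 0 to 1 with a library left out. For summed fold enrichment, IKAROS calls numbered 8, with 0 to 4 when a library was left out, 4 (and 1 higher, Blk) by number of peaks (27.5% of all genes lower and 47 genes higher), 5 without a filter (10.9% of all genes, a fit in which most genes had no spread, so that it is unreliable), 1 after quantile normalization and 5 with equal list lengths (31.9%). ETS1 calls numbered 3, with 0 to 1 when a library was left out, 1 by highest fold enrichment (37.4%), 5 with a pseudocount of 5 (40.1%), 0 after quantile normalization, 0 with equal list lengths (7.2%) and 5 in windows of 5 kb (38.2%). IRF8 calls numbered 0, with 1 by highest fold enrichment (32.6%), and 1 gene was higher after quantile normalization.

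Sites called in WT alone numbered 19 for IKAROS, 3 with equal list lengths, 6 when peaks within 500 bp were merged, 40 where 1 library sufficed and 22 to 38 with a library left out. For ETS1 they numbered 9, then 1 with equal list lengths, 19 where 1 library sufficed and 10 to 16 with a library left out, and the DKO-only ETS1 site was 0 in windows of 5 kb. For IRF8 and PAX5 they numbered 0, and 1 where 1 library sufficed, 1 in windows of 50 kb and 0 to 1 with a library left out, and for PAX5 1 at a −log10 q of at least 4. Shares over all sites at these settings are not given.

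Directions turned at IKAROS for Blk (-0.12 to 0.16 with a library left out, -0.07 without DKO replicate 1, -1.03 by highest fold enrichment, -0.50 in windows of 50 kb). At ETS1 they turned after quantile normalization for Cd79a (0.36) and Blnk (0.37), and with equal list lengths for Cd79b (0.65), Syk (1.06) and Blnk (0.064). At IRF8 they turned after quantile normalization for Cd79b (1.81), Ms4a1 (0.28) and Syk (0.69), without WT replicate 1 for Cd79b (0.10), and without DKO replicate 2 for Cd79b (0.01) and Syk (0.018). The cause was not tested, except that quantile normalization and centring by construction remove the shift of all genes.

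Same-numbered libraries did not deviate together over genes (correlations 0.0192, 0.00425 and 0.0096 for IKAROS, ETS1 and IRF8). With 2 libraries per genotype this cannot exclude that same-numbered libraries were prepared together. With a replicate block, IKAROS calls among the genes numbered 2 and ETS1 calls 1, and all-gene calls 1861 and 1661. Equal list lengths left IRF8 with too few genes for a fit. Where a library was left out, the lone sample was assumed to vary like the other genotype, and the ETS1 and IRF8 fits over genes without a WT library had no spread for most genes, so that they are unreliable. Unknown depth limits every comparison of list lengths.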
